A study of Mus musculus with 6 samples.

Results

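Genes of mitosis and chromosome segregation were followed in the stomach lining of mice with and without A4gnt, the enzyme that adds a terminal α1,4-linked N-acetylglucosamine to the O-glycans of gland mucin. The 44 genes were taken by name: every probe on the array that carried one of their symbols and was not a control was collected (59 probes), and those well above background on at least 1 of the 6 arrays were kept (57 probes of 43 genes). Of these genes, 41 were well above background on at least 3 arrays and were tested, among 17895 tested of the 31809 genes and unnamed transcripts on the array. The mice were A4gnt null or wild type, of strain C57BL/6J, aged 5, 10 or 50 weeks, with 1 mouse and 1 array for each genotype and age. RNA came from glandular mucosa that had been separated from its muscle layer, and the labels name no treatment. Neither the deleted part of A4gnt nor the sex of the mice was stated in the labels.

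Cells enter mitosis when cyclin B and its kinase partner become active, helped by the Polo and Aurora kinases. Condensins then compact the chromosomes, kinetochores tie each centromere to spindle microtubules, and the spindle checkpoint holds back the anaphase-promoting complex until every chromosome is attached. That complex then marks securin and cyclin B for destruction, the sister chromatids part, and a contractile ring divides the cell. Most of these genes are transcribed in G2 and mitosis, so that their RNA in a tissue is commonly read as a sign of dividing cells. In the gastric glands division is normally concentrated in the isthmus, from which the surface and gland cells are renewed. In RNA from whole mucosa, more cells of a type and more RNA per cell cannot be told apart.

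The 75th percentile of the processed signal was between 234.7 and 368.8 units per array, and from 54.8% to 59.2% of the 43020 spots were well above background. All signals below were scaled so that this percentile was 287.6 on every array. The A4gnt probe had scaled signals of 2.82, 2.83 and 1.65 in null mucosa, not well above background, against 196, 279 and 282 in wild-type mucosa at 5, 10 and 50 weeks. A4gnt was thus at least 23.8-fold lower in null mucosa (limma adjusted p = 0.0915). The gene entered the test through the wild-type arrays alone, so that p-value is no support for a difference. The fold is a check of the labels only if the probe lies in the deleted part. The parietal and surface cell genes Atp4a, Atp4b, Muc5ac, Gkn1 and Tff1, the chief cell gene Pgc and the gland mucous genes Muc6 and Tff2 were well above background on all 6 arrays. The 3 wild-type arrays shared one slide and the 3 null arrays another, so slide and genotype cannot be told apart, while comparisons of ages within a genotype lie within 1 slide.

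The mitosis genes had low signals in the young wild-type mice, intermediate signals in the null mouse of 5 weeks and the wild-type mouse of 50 weeks, and high signals in the null mice of 10 and 50 weeks. The 2 lowest arrays were the wild-type arrays of 5 and 10 weeks for 38 of 41 genes, an arrangement seen in 16.7% of all features tested. For 40 of 41 genes the 2 highest arrays were the null arrays of 10 and 50 weeks, against 17.5% of all features. The complete order, with both young wild-type arrays lowest, then null at 5 weeks, then wild type at 50 weeks, then both older null arrays, held for 37 of 41 genes and for 4.74% of all features. Pttg1, which encodes securin, went the other way.

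**Figure D1:**
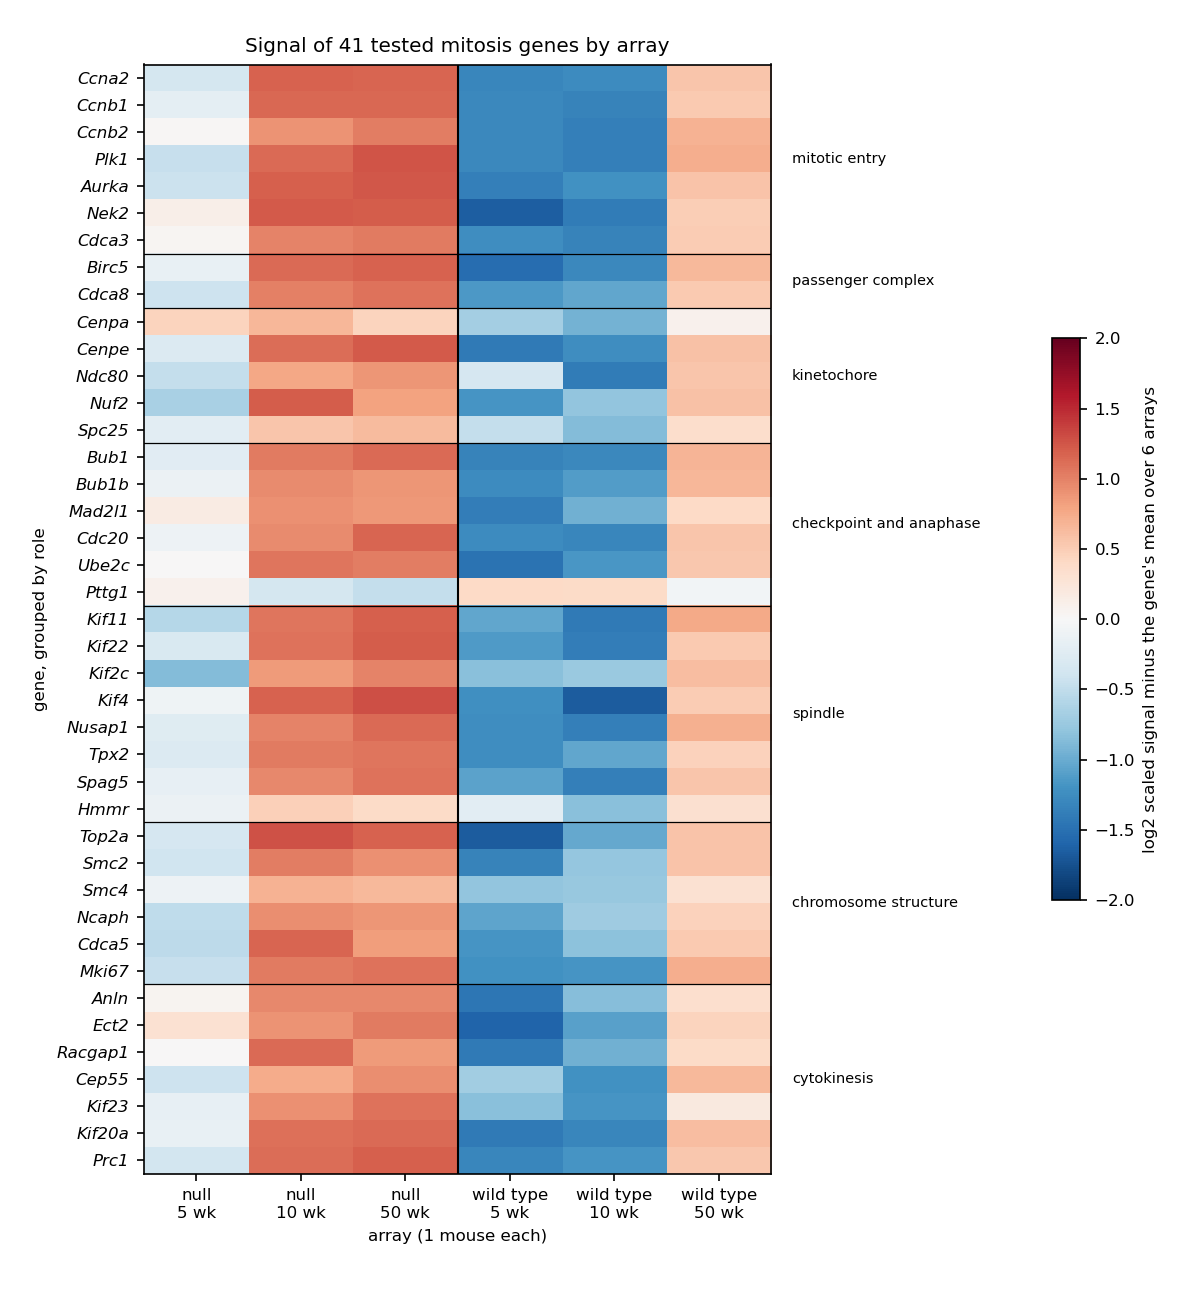
Scaled log2 signal of the 41 tested genes on each array, minus the gene's own mean over the 6 arrays; columns are the arrays of A4gnt null and wild-type mice by age, rows are genes grouped by role, red is above and blue below the gene's mean. The null columns of 10 and 50 weeks are red in every row but that of Pttg1, and the wild-type columns of 5 and 10 weeks are blue in every row but that of Pttg1.

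At 5 weeks 17 of the 39 genes measured above background in both mice were at least 2-fold higher in the null mouse, against 3.73% of all features (background, here and below, is the share of all features that met the same rule). At 10 weeks the count was 40 of 41 genes, against 4.65% of all features, with Pttg1 the exception, and 28 of 41 were at least 4-fold higher, against 1.01%. At 50 weeks 0 of 41 were at least 2-fold higher, against 2.09%. These single-age differences set 1 mouse against 1 mouse and carry no test. The median log2 difference, null minus wild type, was 0.96 at 5 weeks, 2.23 at 10 weeks and 0.48 at 50 weeks, where the medians of all features were 0.01, 0.03 and 0.03. The difference was largest at 10 weeks for 40 of 41 genes (34.7% of all features), and in 35 of them it was smallest at 50 weeks.

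Seen by age, the genotypes reached high signals at different steps. Between 5 and 10 weeks 30 of 40 genes were at least 2-fold higher at the later age in null mice (background 2.84%) and 0 of 39 in wild-type mice (background 3.20%). Between 10 and 50 weeks the counts were 0 of 42 in null mice (background 0.567%) and 40 of 41 in wild-type mice (background 2.61%), with Pttg1 again the exception. The median log2 step from 5 to 10 weeks was 1.26 in null and 0.05 in wild-type mice, and that from 10 to 50 weeks was 0.05 in null and 1.78 in wild-type mice. In 38 of 41 genes the null signal at 50 weeks was within 1.2-fold of that at 10 weeks. The wild-type mouse of 50 weeks exceeded the null mouse of 5 weeks in 39 of 41 genes, and the null mouse of 50 weeks in 1, Pttg1. Each step compares 1 mouse with 1 mouse.

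**Figure D2:**
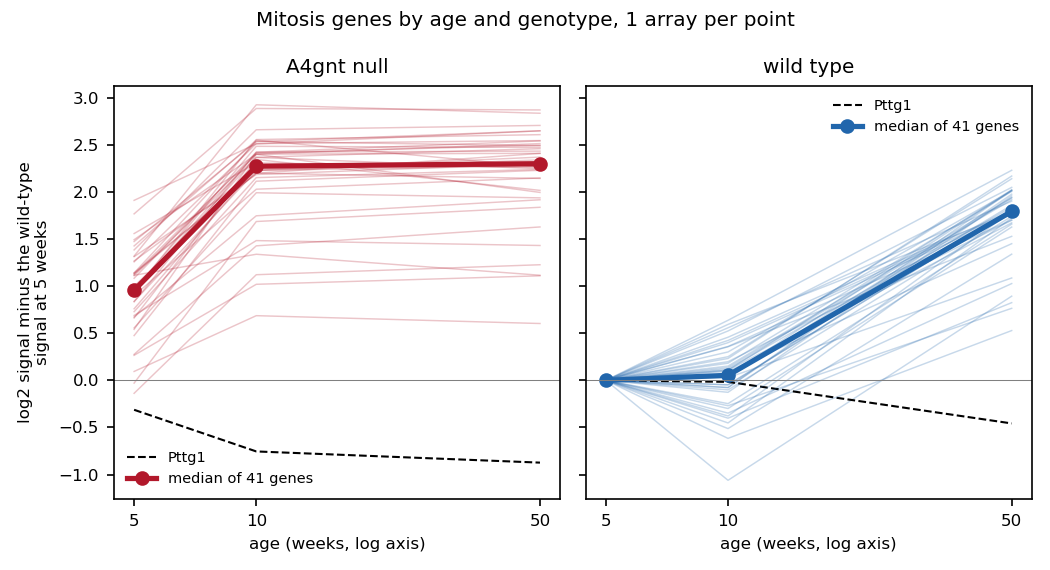
Log2 signal of each of the 41 tested genes (thin lines) minus its wild-type signal at 5 weeks, against age in weeks on a log axis, for A4gnt null (left) and wild-type mice (right); each point is 1 array, the thick line is the median of 41 genes and the dashed line is Pttg1. The null median is already high at 10 weeks and stays level to 50 weeks, while the wild-type median is level from 5 to 10 weeks and higher at 50 weeks (median step 1.78).

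Over the 3 ages the spread between the within-age differences was wide, and no gene passed. With limma, age as a factor and Benjamini-Hochberg adjustment over all 17895 features, 0 of 41 genes had an adjusted p under 0.05 (background 0.00%), and their adjusted p lay between 0.145 for Anln and 0.386 for Ndc80. At an unadjusted p under 0.05, 32 of 41 were higher in null mice, against 12.8% of all features, and Pttg1 was lower. Higher signals in null mice at all 3 ages were found for 38 of 41 genes (background 28.5%), the others being Kif2c, Ndc80 and Pttg1. The mean difference was at least 2-fold in favour of null mice for 31 of 41 genes (background 3.13%). All 3 null arrays exceeded all 3 wild-type arrays for 1 of 41 genes, Cenpa, against 14.0% of all features; in 39 of 41 genes the wild-type mouse of 50 weeks exceeded the null mouse of 5 weeks. The median log2 difference over the ages was 1.29, beside 0.01 for all features, and 0.78 without the 10-week pair. A normexp background correction was also tried, with an offset of 50 units added to every signal. The difference was then over 1.5 times smaller for 12 of 41 genes, at 0.21 to 0.93 (Bub1, Bub1b, Cep55, Kif11, Kif23, Kif2c, Kif4, Ndc80, Nek2, Nuf2, Spag5 and Top2a). Such an offset by itself lowers the log2 differences of dim genes, and its part was not separated. Without any scaling between arrays 32 genes passed the limma test, with the same SE of 0.35 for every gene. Under the other settings that were tried 0 passed.

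The tests of age gave no call either. Across both genotypes, 0 of 41 genes had an adjusted limma p under 0.05 for 10 against 5 weeks (background 0.0112%, which is 2 features), and 0 at an unadjusted p under 0.05, where 11.8% of all features had one; the lowest adjusted p was 0.433. For 50 against 10 weeks 0 of 41 passed (background 0.00%), with 0 at an unadjusted p under 0.05, against 6.84% of all features, and a lowest adjusted p of 0.711. A trend of the genotype difference with the logarithm of age was passed by 0 of 41 (background 0.00%). At an unadjusted p under 0.05 the count was 1 of 41 (2.44%), beside 2.82% of all features. A straight slope is poorly suited to a difference that was largest at 10 weeks. The age contrasts average the genotypes, whose steps fell at different ages. These tests therefore do not decide whether the genotype difference changed with age.

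**Figure D3:**
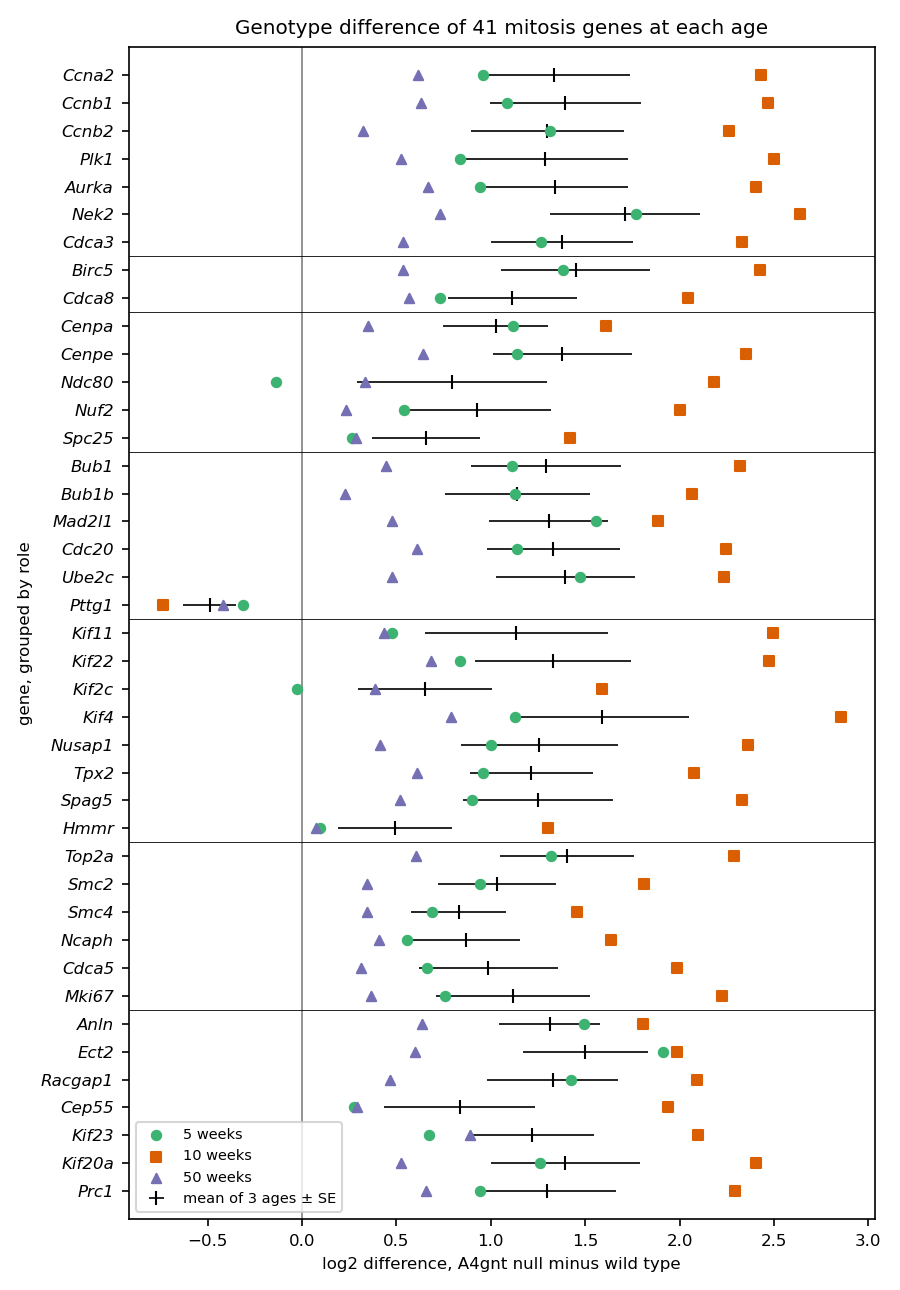
Log2 difference, A4gnt null minus wild type, of each of the 41 tested genes at 5 weeks (circles), 10 weeks (squares) and 50 weeks (triangles), with the mean of the 3 ages and its standard error as a bar (n = 3 per genotype), genes grouped by role. The squares lie farthest right in every row except that of Pttg1, where all 3 symbols lie left of 0, and at 5 weeks Ndc80 and Kif2c (not well above background at that age) lie just left of 0.

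As the genes shared an order across the arrays, their promoters were examined for elements known from G2 and mitotic genes. The cell cycle genes homology region, TTTGAA, is bound by the MuvB complex, which represses such genes in resting cells and activates them in G2 with B-Myb and FoxM1, and CCAAT is bound by NF-Y. In RefSeq promoters on GRCm38.p6, 250 bases before to 50 after the start, 39 of 44 genes were matched by 42 promoters. On either strand, TTTGAA was present in 32 of 42 (76.2%), against 17.9% of all 32851 promoters and 16.7% of 42 promoters of DNA replication genes. CCAAT was present in 30 of 42 (71.4%), against 37.4% of all promoters and 54.8% of the replication promoters. Both words were present in 26 of 42 (61.9%), against 6.95% of all promoters and 7.14% of the replication promoters. The variant TTCGAA occurred in 3 of 42 (7.14%), against 1.56%. The E2F words TTCCCGCC and TTTCCCGC occurred in 0 of 42, against 2.19% and 1.07% of all promoters, and in 19.0% and 14.3% of the replication promoters. These are counts of letters and do not show binding.

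The following 120 bases upstream of the start, 5′ to 3′ on the strand of the gene, show how these words lie in the promoters of 6 genes with higher signals in null mice that carry TTTGAA close to the start, and in that of Pttg1, which has neither word in its 300 bases, like those of Birc5, Mad2l1, Ncaph, Nuf2 and Nusap1, all higher in null mice at all 3 ages; capitals mark TTTGAA or its complement TTCAAA and CCAAT or its complement ATTGG.
Cdc20 (chr4:118437344-118437463, minus strand): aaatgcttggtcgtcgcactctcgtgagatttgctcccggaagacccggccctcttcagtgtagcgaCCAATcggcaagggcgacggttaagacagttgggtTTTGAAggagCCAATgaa
Ube2c (chr2:164769809-164769928, plus strand): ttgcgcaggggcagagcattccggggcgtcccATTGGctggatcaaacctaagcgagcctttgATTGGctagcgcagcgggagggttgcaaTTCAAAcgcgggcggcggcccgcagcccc
Kif11 (chr19:37376262-37376381, plus strand): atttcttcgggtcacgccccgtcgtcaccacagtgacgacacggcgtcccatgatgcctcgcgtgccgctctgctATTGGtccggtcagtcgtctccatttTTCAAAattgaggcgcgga
Top2a (chr11:99024190-99024309, minus strand): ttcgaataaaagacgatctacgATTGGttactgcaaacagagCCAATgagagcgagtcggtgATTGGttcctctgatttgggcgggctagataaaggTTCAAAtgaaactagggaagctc
Cdca5 (chr19:6084977-6085096, plus strand): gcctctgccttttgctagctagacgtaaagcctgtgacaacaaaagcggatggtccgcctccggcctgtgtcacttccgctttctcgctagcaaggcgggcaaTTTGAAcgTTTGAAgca
Prc1 (chr7:80294356-80294475, plus strand): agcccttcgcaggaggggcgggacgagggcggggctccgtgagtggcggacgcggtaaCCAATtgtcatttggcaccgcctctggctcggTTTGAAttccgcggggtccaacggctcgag
Pttg1 (chr11:43425982-43426101, minus strand): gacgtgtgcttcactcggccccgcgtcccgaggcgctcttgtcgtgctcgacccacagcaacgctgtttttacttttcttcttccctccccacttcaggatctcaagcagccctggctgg
In Cdc20, Kif11 and Top2a the first base of the TTTGAA word lies 18, 19 and 23 bases before the start, and in Cdca5 it occurs at 17 and again at 9 bases before it. In Ube2c it lies 29 and in Prc1 30 bases before the start. A CCAAT word stands further upstream in all of these but Cdca5. In many promoters not printed TTTGAA lies after the start instead, as in those of Aurka, Cenpa, Plk1 and Spc25.

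Of the genes of mitotic entry, all 7 tested were higher in null mice at all 3 ages, with a median log2 difference of 1.34 over the ages and of 1.08, 2.43 and 0.61 at 5, 10 and 50 weeks. Cyclin B1, Ccnb1, activates Cdk1 at the start of mitosis; its signal was 504, 1275 and 1285 in null mice and 238, 230 and 829 in wild-type mice (in this order of age, 5, 10 and 50 weeks, here and below). The null mouse of 5 weeks lay below the wild-type mouse of 50 weeks, so the genotypes overlapped (log2 difference 1.40 ± 0.40, SE, n = 3 per genotype, adjusted p = 0.172). Ccnb2, the other B-type cyclin, gave 879, 1609 and 1743 in null mice and 354, 335 and 1392 in wild-type mice. For Ccna2, which acts in S phase and G2, the signals were 582, 1679 and 1666 in null mice and 299.9, 311 and 1089 in wild-type mice. In each of these cyclins the young wild-type mice had the lowest values and the older null mice the highest.

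Polo-like kinase 1, Plk1, drives centrosome maturation and mitotic entry, and its signal was 772, 2320 and 2521 in null mice and 433, 410.5 and 1752 in wild-type mice. Aurora kinase A, Aurka, which acts at the spindle poles, measured 444, 1356 and 1406 in null mice and 230.5, 256 and 884 in wild-type mice. Nek2, a kinase that separates the centrosomes, gave 39.8, 86.4 and 85.5 in null mice and 11.7, 13.9 and 51.5 in wild-type mice. It was not well above background in the wild-type mouse of 5 weeks, where the null signal exceeded it at least 2.91-fold; over the ages it differed by 1.71 ± 0.40 (SE, n = 3 per genotype, adjusted p = 0.154), the largest value here, and by 0.60 with the normexp background correction. Cdca3, a factor for mitotic entry through degradation of Wee1, differed by 1.38 ± 0.38. In Plk1 and Aurka, as in Nek2, the null mouse of 5 weeks lay between the young and the old wild-type mice.

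The chromosomal passenger complex corrects faulty attachments and guides cytokinesis. Survivin, Birc5, one of its targeting subunits, gave 3100, 7506 and 7749 in null mice and 1187, 1394 and 5340 in wild-type mice, a log2 difference of 1.45 ± 0.40 (SE, n = 3 per genotype, adjusted p = 0.168). Borealin, Cdca8, gave 945, 2535 and 2694 in null mice and 570.1, 615 and 1818 in wild-type mice. Both had the order seen in the cyclins. Aurkb, the kinase of the complex, was not tested, since it was well above background on 2 null arrays and on 0 wild-type arrays. Its signals were 5.30, 18.02 and 10.66 in null mice and 5.60, 3.17 and 4.98 in wild-type mice, and at 10 weeks the null mouse exceeded the wild-type mouse at least 1.97-fold.

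The 5 kinetochore genes tested had a median difference of 0.92. The motor Cenpe, which carries chromosomes along microtubules, gave 541, 1422 and 1539 in null mice and 245, 278 and 985 in wild-type mice. Cenpa, the histone H3 variant that marks centromeres, was the gene without overlap: its signal was 277, 323 and 277 in null mice and 128, 106 and 217 in wild-type mice, a log2 difference of 1.03 ± 0.28 (SE, n = 3 per genotype, adjusted p = 0.168). Unlike most of the others it was about level across the null mice, with a log2 step of 0.22 from 5 to 10 weeks.

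Members of the Ndc80 complex, which grips the microtubule, differed less. Ndc80 itself had signals of 45.2, 108 and 116 in null mice and 49.7, 23.8 and 92.4 in wild-type mice, so that the null mouse was the lower one at 5 weeks. Nuf2 gave 21.3, 77.3 and 58.4 in null mice and 14.6, 19.3 and 49.7 in wild-type mice. Spc25 gave 1786, 3012 and 3207 in null mice and 1485, 1125 and 2632 in wild-type mice, a log2 difference of 0.66 ± 0.29. In all 3 the wild-type mouse of 50 weeks lay below both older null mice and above the null mouse of 5 weeks. Cenpf, a protein of the outer kinetochore, stood well above background on 0 of 6 arrays, with signals from 3.10 to 5.45 in null mice and from 2.21 to 5.65 in wild-type mice.

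The spindle checkpoint and anaphase genes shared a pattern, with 1 exception. Bub1, a checkpoint kinase, gave 56.8, 136 and 145 in null mice and 26.3, 27.2 and 106 in wild-type mice. Its probe was spotted 10 times per array, and the log2 SD of those spots lay between 0.073 and 0.247, which covers technical error within an array and not the spread between mice. The checkpoint protein Bub1b gave 44.9, 94.2 and 90.6 in null mice and 20.5, 22.5 and 77.5 in wild-type mice. Mad2l1, which inhibits Cdc20 at unattached kinetochores, gave 382, 643 and 622 in null mice and 129.7, 174 and 447 in wild-type mice. Null mice thus had the higher signal at each age for all 3 genes.

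Cdc20, the activator of the anaphase-promoting complex whose promoter is printed above, gave 1371, 2854 and 3303 in null mice and 622, 601 and 2168 in wild-type mice. Ube2c, the ubiquitin-conjugating enzyme of that complex, gave 769, 1606 and 1556 in null mice and 277, 341 and 1117 in wild-type mice. They differed by 1.33 ± 0.35 and 1.40 ± 0.37 on the log2 scale. Pttg1, the inhibitor of separase that the complex destroys, had signals of 3002, 2209 and 2035 in null mice and 3728, 3686 and 2715 in wild-type mice. It was lower in the null mouse at each age, by a mean log2 difference of -0.49 ± 0.14 (SE, n = 3 per genotype, adjusted p = 0.172), and lower in the oldest mouse of each genotype. The genotypes overlapped, as the null mouse of 5 weeks lay above the wild-type mouse of 50 weeks. Ttk, the kinase that starts the checkpoint, was well above background in 1 null mouse and in 0 wild-type mice, with signals of 10.0, 14.4 and 16.9 in null mice and 3.83, 2.86 and 5.84 in wild-type mice. At 50 weeks the null signal exceeded the wild-type one at least 1.46-fold.

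Among 8 genes of the spindle, 7 were higher in null mice at all 3 ages, Kif2c being the other. Kif11, the motor that pushes the poles apart, gave 33.7, 105 and 114 in null mice and 24.2, 18.7 and 84.1 in wild-type mice. Kif4, a motor of chromosome arms and the central spindle, gave 55.1, 133 and 144 in null mice and 25.2, 18.4 and 83.2 in wild-type mice (log2 difference 2.85 at 10 weeks). Its young wild-type signals were dim, and its difference over the ages was 1.59, or 0.72 with the normexp background correction. Kif22, another motor on chromosome arms, gave 474, 1241 and 1343 in null mice and 265, 223 and 837 in wild-type mice. All 3 motors were lower at 10 than at 5 weeks in wild-type mice, and higher in null mice, as were 16 of the 41 genes.

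Nusap1 and Spag5, which bind spindle microtubules, differed by 1.26 ± 0.42 and 1.25 ± 0.40. Hmmr, a spindle protein and hyaluronan receptor, had a small difference, with 153, 231 and 218 in null mice and 144, 93.7 and 207 in wild-type mice (0.49 ± 0.30, adjusted p = 0.373). Kif2c, which shortens microtubules at centromeres, gave 12.5, 41.1 and 45.6 in null mice and 12.8, 13.6 and 34.9 in wild-type mice, and neither 5-week array was well above background. The other kept probe of Kif2c, well above background on 4 arrays, gave 14.0, 35.9 and 29.9 in null mice and 3.94, 11.2 and 22.3 in wild-type mice. At 10 and 50 weeks the null mouse was higher by both probes, and at 5 weeks neither probe was well above background in either mouse.

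Tpx2, which activates Aurka on the spindle, was measured by 2 probes that did not agree. The probe used gave 131, 325 and 333 in null mice and 67.2, 77.1 and 218 in wild-type mice, a log2 difference of 1.22 ± 0.32. The other gave 58.4, 89.2 and 117 in null mice and 67.7, 70.8 and 89.2 in wild-type mice, a mean difference of 0.17. The first 30 of the 60 bases of each probe are shown because the difference depends on which one is read, with the position of the whole probe on the plus strand of mm9.
Tpx2, probe used (chr2:152719476-152719535): cgccatgtttggaaacacacctgataacta
Tpx2, other probe (chr2:152720285-152720344): gcccagtgcaaaggcatgtatttcaactta

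Genes of chromosome structure were somewhat less different, with a median of 1.01. Topoisomerase IIα, Top2a, which untangles sister chromatids, gave 114, 347 and 326 in null mice and 45.6, 71.0 and 214 in wild-type mice, a log2 difference of 1.40 ± 0.36. The condensin core subunits Smc2 and Smc4 differed by 1.03 ± 0.31 and 0.83 ± 0.25, and Ncaph, a regulatory subunit of condensin I, by 0.87 ± 0.29. Smc2 gave 183, 491 and 452 in null mice and 95.2, 140.1 and 356 in wild-type mice. In Top2a and Smc2 the wild-type mouse of 10 weeks was already above that of 5 weeks, by 0.64 and 0.56 on the log2 scale.

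Sororin, Cdca5, which protects cohesion, gave 279, 895 and 713 in null mice and 176, 226 and 573 in wild-type mice. The log2 SD of its 10 spots lay between 0.040 and 0.118. Mki67, the proliferation marker that coats mitotic chromosomes, gave 1838, 5213 and 5368 in null mice and 1085, 1113 and 4160 in wild-type mice, a log2 difference of 1.12 ± 0.41 (SE, n = 3 per genotype, adjusted p = 0.208). Cdca5 was highest in the null mouse of 10 weeks, and Mki67 in that of 50 weeks, by a small margin over 10 weeks.

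The 7 cytokinesis genes had a median difference of 1.31 and included the lowest adjusted p-values. Anln, the actin-binding scaffold of the contractile ring, gave 268, 503 and 506 in null mice and 95.2, 144 and 326 in wild-type mice (1.31 ± 0.27, adjusted p = 0.145). Ect2, the exchange factor that activates RhoA at the division site, gave 271, 410.1 and 451 in null mice and 71.9, 103 and 298 in wild-type mice (1.50 ± 0.33, adjusted p = 0.150). Racgap1, a subunit of the centralspindlin complex that binds Ect2, gave 423, 922 and 757 in null mice and 157, 216 and 549 in wild-type mice. In these 3 genes the log2 difference was between 1.43 and 1.91 at 5 weeks and between 1.81 and 2.09 at 10 weeks, and the null mouse of 5 weeks exceeded both young wild-type mice.

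Kif23, the motor of centralspindlin, gave 86.5, 182 and 205 in null mice and 54.2, 42.6 and 111 in wild-type mice. Kif20a, a motor of the central spindle, gave 262, 625 and 639.6 in null mice and 109, 118 and 445 in wild-type mice, and Prc1, which bundles the midzone microtubules, differed by 1.30 ± 0.37. Cep55, which recruits the abscission machinery, gave 91.8, 204 and 234 in null mice and 75.8, 53.1 and 192 in wild-type mice, with a difference of 0.84 ± 0.40. For Cep55 the wild-type mouse of 50 weeks lay above the null mouse of 5 weeks and close below the older null mice.

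Other cell-cycle genes were examined as lists drawn up by function. Beside the counts of each list, 28.5% of all features were higher in null mice at all 3 ages, and 12.8% were higher at an unadjusted p under 0.05. Of 63 other mitotic genes tested, 51 were higher in null mice at all 3 ages and 0 passed limma (32 higher and 1 lower at an unadjusted p under 0.05), with median log2 differences of 0.55, 1.57 and 0.37 at 5, 10 and 50 weeks. Depdc1a was well above background on the 3 null arrays alone, with signals of 19.9, 33.5 and 34.3 in null mice and 5.58, 4.18 and 11.5 in wild-type mice, and was at least 2.51-fold higher in null mice over the ages (limma adjusted p = 0.129). It entered the test through the null arrays alone, so that p-value is no support for a difference. The counts of 51 and 32 above include Depdc1a. The mitotic phosphatase Cdc25c was well above background on 2 null arrays and 1 wild-type array, with signals of 13.1, 37.6 and 31.6 in null mice and 3.67, 6.58 and 29.6 in wild-type mice. The spindle proteins Ckap2 and Ckap2l differed by 1.67 ± 0.50 and 1.56 ± 0.43. Ckap2l was well above background on only 2 wild-type arrays, with a dim wild-type signal of 5.32 at 5 weeks.

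DNA replication genes differed less and followed another course in wild-type mice. Of 43 tested, 35 were higher in null mice at all 3 ages and 0 passed (21 higher at an unadjusted p under 0.05), with medians of 0.44, 0.92 and 0.24 at 5, 10 and 50 weeks. Their median log2 step in wild-type mice was 0.56 from 5 to 10 weeks and 0.53 from 10 to 50 weeks, beside 0.05 and 1.78 for the mitosis genes; no test compared the lists. Rrm2, the ribonucleotide reductase subunit, gave 940.0, 2461 and 1994 in null mice and 425, 853 and 1494 in wild-type mice, a log2 difference of 1.03 ± 0.25. It was higher in the null mouse at each age. The thymidine kinase Tk1 differed by 0.97 ± 0.38 and the checkpoint adaptor Clspn by 0.95 ± 0.34. Clspn was well above background on only 2 wild-type arrays, with a dim wild-type signal of 7.20 at 5 weeks.

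Genes of G1 cyclins, E2F factors and their inhibitors had a median difference over the ages of 0.28 (18 of 29 higher at all ages, 0 passed, 9 higher and 1 lower at an unadjusted p under 0.05). Within that list the phosphatase Cdkn3 differed by 1.89 ± 0.46, the repressor E2f7 by 1.33 ± 0.24, cyclin Ccne1 by 1.06 ± 0.25 and the pocket protein Rbl1 by 0.90 ± 0.25. Subunits of the anaphase-promoting complex and of cohesin had a median of 0.21 (14 of 23 higher at all ages, 0 passed). At an unadjusted p under 0.05 only 2 of 23 were higher, beside 12.8% of all features. In that list the cohesin acetyltransferase Esco2 differed by 0.97 ± 0.31 and the cohesin subunit Stag1 by 0.38 ± 0.12, while the complex's subunits Anapc13 and Cdc23 differed by -0.35 ± 0.13 and 0.31 ± 0.17. The reference genes, 12 housekeeping genes, had a median of 0.29, and their summed signals were 684365 to 707819 in null mice and 553206 to 667518 in wild-type mice.

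**Figure D4:**
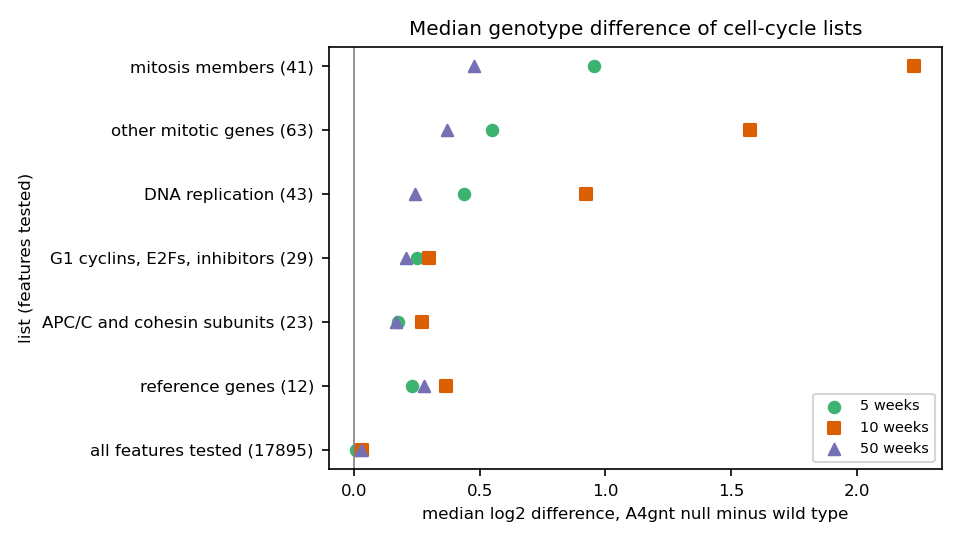
Median log2 difference, A4gnt null minus wild type, of 7 sets of features at 5 weeks (circles), 10 weeks (squares) and 50 weeks (triangles), with the number of features tested in brackets; each age is 1 mouse against 1 mouse. The mitosis genes have the largest medians at each age, up to 2.23 at 10 weeks, and the reference genes lie between 0.23 and 0.37.

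Markers of other cells also differed between the mice. Gland mucous genes were higher in null mice at all ages for 7 of 7, with medians of 1.32, 2.06 and 1.01 at 5, 10 and 50 weeks, the same order of ages as the mitosis genes, and sums of 351372 to 552911 in null mice and 132137 to 305752 in wild-type mice. Parietal genes were lower at all ages for 12 of 12, with sums of 81296 to 219448 in null mice and 175402 to 270152 in wild-type mice. Of 9 T cell markers, Cd2, Cd3d, Cd8a and Cd8b1 stood well above background on 0 of 6 arrays, and the sums were 2527 to 4686 in null mice and 3271 to 4588 in wild-type mice. Fibroblast genes were higher in null mice at all ages for 6 of 10, with sums of 6734 to 8929 in null mice and 4251 to 6632 in wild-type mice. Smooth muscle genes had medians of 2.04, 0.50 and -2.43 at 5, 10 and 50 weeks. Chief cell genes were lower in null mice at all ages for 6 of 7, with sums of 203688 to 474582 in null mice and 490417 to 650928 in wild-type mice. Genes of other organs and of squamous epithelium varied between single arrays. Liver genes summed to 8318, 3593 and 2769 in null mice and to 8721, 21935 and 6557 in wild-type mice at the successive ages, with Alb, serum albumin, at 37.6 in the null and 2939 in the wild-type mouse of 10 weeks. Squamous epithelium genes summed to 1041, 850.1 and 812 in null mice and to 536, 2374 and 4474 in wild-type mice. Of the last sum, 2908 was Lor. Of the 4 genes tested, 1 was higher and 1 lower in null mice at all ages. The higher one was Ivl, at 195, 118 and 76.6 in null mice and 4.60, 43.7 and 18.9 in wild-type mice. Pancreas genes summed to 37193, 5861 and 3017 in null mice and to 61049, 9513 and 17433 in wild-type mice. The enzyme genes Cela2a, Cpa1 and Pnlip had signals of only 1.96 to 3.93 in both mice of 10 weeks. In the null mouse of 50 weeks they had 2.63 to 12.8. The pancreas sums of these 3 mice thus came from other genes of the list. The liver sum was thus highest in the wild-type mouse of 10 weeks, the age with the largest mitosis difference. The squamous and smooth muscle sums (4474 and 21958) were highest in the wild-type mouse of 50 weeks, where the mitosis genes were higher than in the younger wild-type mice. The pancreas sum was highest in the wild-type mouse of 5 weeks. The part of all these cells and tissues in the mitosis result was not tested.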

How the data were processed

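RNA of 6 mice (3 per genotype) was hybridised to one-colour arrays. Per the file headers, spot intensity comes from Agilent Feature Extraction (version 10.7.1.1) with background subtracted; per the labels, Cy3-labelled cRNA was used. The authors' deposited log2 table equals log2 processed signal plus an array constant and served as an alternative. Processed signals were put on the log2 scale and each array's 75th percentile subtracted; outlier spots were dropped and repeat spots averaged. Per gene the brightest probe was used, and genes well above background on 3 or more arrays were tested. The number of arrays limits precision. Genotype and age effects came from limma (version 3.58.1, R version 4.3.3) with a factor for age, and were adjusted by Benjamini-Hochberg at 0.05; the fit was tested on simulated data. Bounds use the lowest signal well above background of the array. Each age pairs the genotypes by label, and this pairing is in the model. All members could be named; other lists name up to 4 genes with the largest absolute difference, and a few such genes are not reported here. Members and lists were chosen with earlier results of these data known. Exon and UTR annotation was not used here. The labels name 1 mouse per array, so the p-values of the genotype and age contrasts rest on how the genotype difference varied between ages. That spread holds both variation between single mice and any change of the difference with age.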

Additional observations from a re-analysis of the deposited data

Results flagged for a closer look

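At 5 weeks Ndc80 differed by -0.14 on the log2 scale (null minus wild type), opposite to its differences of 2.18 and 0.33 at 10 and 50 weeks; this opposite direction was not tested.

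A further signal came from probes not used for the genes' values. Of 14 other kept probes of 11 genes, 12 were well above background on at least 3 arrays; 9 of these were higher in null mice at all 3 ages, and their median difference was 1.27 over the ages (0.77, 2.21 and 0.41 at 5, 10 and 50 weeks). The other 3 were the second Tpx2 probe, with a mean difference of 0.17, a dim Mad2l1 probe, with 0.37, and a dim Cep55 probe, with -0.06 at 5 weeks. The second Pttg1 probe was well above background on only 2 arrays.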

How the results depend on the processing

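Of 531 comparisons of a gene with a setting, 499 kept direction and side of the threshold, 32 newly passed, all without scaling between arrays, and 0 reversed. Features called for genotype numbered 0 as reported, 1 with quantile normalization, 1041 without scaling, 198 with normexp, 58 with an intensity trend and 7 without an age term, and 0 with each age pair left out. Members called numbered 0 as reported and 32 without scaling; for 10 against 5 weeks 4 were called without scaling. Without scaling, limma gave every member the same SE of 0.351, from a variance shared by all features. The median difference was then 1.37, beside 1.29 as reported, so the higher count there goes with that shared variance. Why the number of features called differed under other settings was not tested. The fit without the replicate block (no age term) called 0 members, with a lowest adjusted p of 0.247. The median over the ages was 0.93 with normexp and its offset of 50. It was 1.41 with scaling to the median, which moved all features by 0.13. Leaving out age pairs gave 0.78 (without 10 weeks) to 1.65 (without 50 weeks). Medians ranged from 0.68 to 1.06 at 5 weeks, 1.62 to 2.32 at 10 weeks and 0.41 to 0.93 at 50 weeks. Dim genes (such as Nek2, Kif2c, Ndc80, Kif11, Nuf2, Kif4 and Bub1b) lie near background in young wild-type mice, which limits their folds.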
